A study of Rattus norvegicus with 72 samples.

Results

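The comparison described here is that of hypothalamus at postnatal day 9 (P9) with hypothalamus at postnatal day 2 (P2) in female rat pups whose litters were labelled paternal. It rests on 12 RNA libraries of the 72 libraries in the series (48 of them RNA), 6 at P9 and 6 at P2, chosen by their labels for tissue, parent of origin and age. By the labels, which were taken as given, the deletion of Ube3a was derived from the father. The groups were P9 deletion pups, P9 wild-type (WT) littermates, P2 deletion pups and P2 WT littermates, with 3 libraries each. All pups were female, and the WT controls were matched to the deletion pups by litter. Genotype entered the comparisons of ages as a covariate or through group means, except in an alternative fit without it. The labels do not say how the deletion was made. Nor do they tie single libraries to litters, so that libraries of littermates are counted as independent. A p-value here covers only library-to-library spread, which may in part be technical. Any difference in litter or collection between the ages cannot be told apart from age.

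The hypothalamus is the forebrain region that controls feeding, body temperature, growth, reproduction and stress through neuropeptide neurons and the pituitary. In rodents the first postnatal weeks bring the end of neuron production in most of the brain, the formation of synapses, the maturation of astrocytes and the start of myelination by oligodendrocytes. Ube3a encodes an E3 ubiquitin ligase that mature neurons make mainly from the maternal copy. Comparing the ages asks which transcripts moved over this first week of maturation, and whether the deletion altered that movement.

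The rows of the table are RefSeq accessions, not gene names. Those starting with NM_ stand for mRNAs and those starting with NR_ for noncoding RNAs. They are understood to be accessions of other species, mostly mouse, although the files do not state it. How reads over overlapping accessions were counted is not given in the sources used here, so the share of a gene's reads that a row holds is unknown. Only a table of rat accessions was at hand, and it named no row: 0 of 184444 counted accessions were found among the 114725 rat accessions of the RefSeq table used (assembly GRCr8). Accessions are therefore given as deposited, without a gene name or a role, and no gene list or cell type marker could be looked up, the markers of hypothalamus and of the cell types named above included. Several accessions can stand for 1 gene. Of the 6511 accessions tested, 1431 (22.0%) had counts near-identical to those of another tested accession (absolute differences over the 12 libraries summing to less than 10% of the larger total), so fewer genes than accessions may stand behind a count given here.

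Library totals ran from 437650 to 1165651 counts at P9 and from 685454 to 1019909 at P2. The P9 deletion replicate 2 had the lowest total. A single accession took between 4.64% and 11.4% of the counts of each library, and 34812 accessions had any count. The accessions tested held 95.9% to 97.3% of each library's counts. Levels are given as CPM, counts scaled to 1000000 per library over the accessions tested, adjusted by the trimmed mean of M-values (TMM), and are compared only within an accession.

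The ages stood apart as whole profiles. In multidimensional scaling of the 12 libraries, dimension 1 (29.8% of variance) placed the 6 P9 libraries between 0.11 and 1.21 and the 6 P2 libraries between -0.80 and -0.30, without overlap. P9 libraries were spread wider: WT replicate 1 and deletion replicate 2 lay at 1.04 and 1.21, and the other 4 between 0.11 and 0.62. Correlations of log2 CPM between libraries, across accessions, ran from 0.894 to 0.969 among P9 libraries, from 0.926 to 0.970 among P2 libraries and from 0.864 to 0.942 between the ages. Deletion and WT libraries were interleaved at each age along dimension 1. Dimension 2 (19.7% of variance) separated libraries within each age, across genotypes. At P9, WT replicate 1 and deletion replicate 2 lay at 0.48 and 0.45 and deletion replicate 1 at 0.06. The rest of the P9 libraries lay between -0.77 and -0.73. At P2, WT replicate 1 and deletion replicate 1 lay at 0.83 and 0.81, and the rest between -0.25 and 0.10. What lies behind this grouping was not tested. Both outlying P9 libraries were kept, and the count of changed accessions is given below without them.

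**Figure D1:**
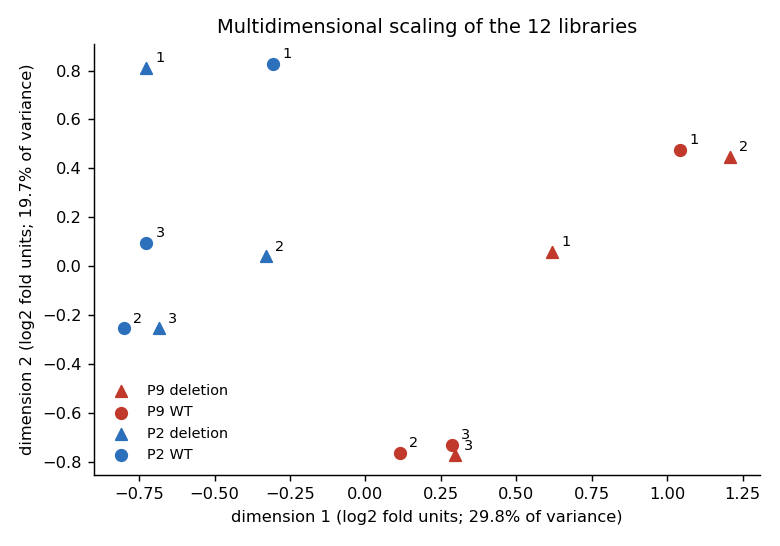
Multidimensional scaling of the 12 libraries, with dimension 1 on the horizontal and dimension 2 on the vertical axis, both in log2 fold units. Red points are P9 and blue points P2, triangles are deletion and circles WT, and digits are replicate numbers. The 6 P9 libraries lie between 0.11 and 1.21 on dimension 1, all to the right of the P2 libraries.

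At P9 the levels of many transcripts differed from those at P2, in both directions. Of 6511 accessions tested, 1203 (18.5%) changed with age at an adjusted p under 0.05 (edgeR, quasi-likelihood test, adjusted by the Benjamini-Hochberg method over all accessions tested). Of these, 673 (10.3% of those tested) rose and 530 (8.14%) fell at P9. Merging accessions with near-identical counts left 5242 sets, of which 988 held a changed accession, 553 with a rise and 436 with a fall. At unadjusted p under 0.05 there were 2118 accessions, where evenly spread p-values give 326. Without P9 WT replicate 1 and P9 deletion replicate 2, the libraries farthest along dimension 1, 720 rose and 499 fell, and 937 of the 1203 accessions (77.9%) were called again. Without P2 WT replicate 3 the falls numbered 352 and the rises 519. The omission of the 2 P9 libraries was chosen after seeing the data. These are bulk samples, in which more cells of a type and more RNA per cell cannot be told apart.

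The balance of rises and falls depended on how libraries were scaled. With TMM factors the median log2 fold change of all tested accessions was -0.01, and 55.9% of the calls were rises. Scaled to library totals alone, that median was -0.14, a shift of -0.13, and 471 accessions rose while 856 fell, so that 35.5% of calls were rises. TMM factors averaged 0.955 ± 0.0606 at P9 and 1.05 ± 0.0595 at P2 (SD, n = 6 each; two-sided exact permutation test, p = 0.0216, adjusted p = 0.0649 over 6 library measures). The 100 most abundant accessions of each library held 38.0% ± 3.12 of counts at P9 and 34.5% ± 2.60 at P2 (SD, n = 6 each; exact permutation test, p = 0.0606, adjusted p = 0.104). With all libraries thinned to 437650 counts, 14193 ± 607 accessions had a count at P9 and 14983 ± 698 at P2 (SD, n = 6 each; exact permutation test, p = 0.0693, adjusted p = 0.104). Totals of the ages overlapped (871549 ± 248358 counts at P9 and 856571 ± 137531 at P2, SD, n = 6 each; exact permutation test, p = 0.903, adjusted p = 0.903). None of these library measures passed an adjusted threshold of 0.05.

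Most changes were moderate, and the largest were rises. Accessions that rose had a median log2 fold change of 0.85 (quartiles 0.60 and 1.22), and those that fell one of -0.80 (quartiles -1.11 and -0.57). A change of more than 2-fold was fitted for 255 of the accessions that rose (37.9%) and for 176 of those that fell (33.2%), against 8.39% of all accessions tested. More than 4-fold changes numbered 35 among the rises, 1 of which (NM_008614) had a single count at P2, and 7 among the falls. All 6 P9 libraries lay above all 6 P2 libraries for 329 of the 673 accessions that rose, and below them for 204 of the 530 that fell. Over all accessions tested, the ages did not overlap for 564 (8.66%), with every P9 library above in 5.24% and every P9 library below in 3.42%.

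**Figure D2:**
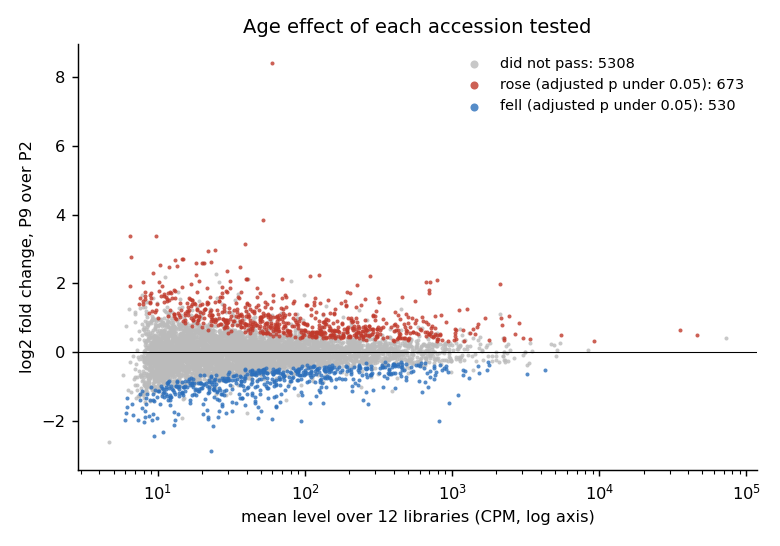
Age effect of each of the 6511 accessions tested, with the mean level over the 12 libraries in CPM on a log axis and the log2 fold change of P9 over P2 on the vertical axis. Red points rose (673), blue points fell (530) and grey points did not pass an adjusted p of 0.05. The rises reach further from 0 than the falls.

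The share called grew with the level of the accession, over 4 groups of nearly equal size by mean CPM. In the lowest group (4.66 to 16.9 CPM) 10.4% of accessions were called, with 77 rises and 93 falls. In the next groups up 13.1% and 20.6% were called, and in the highest (105 CPM and above) 29.8%, with 300 rises and 185 falls. The median absolute log2 fold change of the called accessions went the other way, at 1.30, 1.06, 0.79 and 0.59 from the lowest to the highest group. The median standard error of the fold change was 0.35 in the lowest group and 0.14 in the highest. A fitted change of more than 2-fold did not pass for 71 accessions of the lowest group and for 8 of the highest.

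The 2 accessions with the largest changes in each direction were taken from the 517 that passed the threshold, averaged at least 10 CPM and had no overlap between the ages (322 that rose and 195 that fell). NM_008614 had 103, 120 and 33.2 CPM in the P9 deletion libraries and 402, 27.5 and 30.8 CPM in the P9 WT libraries. At P2 it had 0 CPM in 5 of 6 libraries and 1.30 CPM, a single count, in WT replicate 3. Every P9 library thus lay above every P2 library. Lack of overlap was a condition of choice for the accessions described singly here, and is not a result. P9 WT replicate 1 was far above the other P9 libraries. Its mean was 119 ± 144 CPM at P9 and 0.217 ± 0.532 CPM at P2 (SD, n = 6 each). Without the highest P9 library the P9 mean was 62.9 ± 44.8 CPM (SD, n = 5). Because 1 count stood at P2 against 649 at P9, only a ratio with its counting interval is given for NM_008614: 691, with a 95% exact interval of 124 to 27400 that covers counting error only. Its adjusted p was 0.00206, edgeR quasi-likelihood with Benjamini-Hochberg. The call of NM_008614 was lost without P2 WT replicate 3, which holds that count (adjusted p = 0.0664, edgeR), and after thinning every library to the smallest total (adjusted p = 0.0560, edgeR). Without P2 WT replicate 3 the remaining P2 libraries all had 0 counts, so the ages still did not overlap. The call was kept under 20 of the 22 alternatives.

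NM_177304 had 97.9, 128 and 60.4 CPM in P9 deletion libraries and 169, 59.1 and 63.1 CPM in P9 WT libraries. At P2 it had 5.57, 5.89 and 9.51 CPM in deletion libraries and 11.1, 5.85 and 1.30 CPM in WT libraries. The ages did not overlap, as the choice required, and P9 WT replicate 1 and P9 deletion replicate 2 were again the highest P9 libraries. NM_177304 averaged 96.3 ± 45.0 CPM at P9 and 6.54 ± 3.44 CPM at P2 (SD, n = 6 each), a log2 fold change of 3.85 (SE 0.38, adjusted p = 1.37e-05, edgeR quasi-likelihood with Benjamini-Hochberg), or 14.4-fold. Without P9 WT replicate 1 its log2 fold change was 3.57.

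Among the accessions that fell, NM_172412 had 7.62, 5.56 and 3.56 CPM in P9 deletion libraries and 2.78, 5.09 and 8.41 CPM in P9 WT libraries. At P2 it had 60.2, 32.4 and 32.4 CPM in deletion libraries and 47.6, 38.6 and 31.3 CPM in WT libraries. No P9 library came near the lowest P2 library. NM_172412 averaged 5.50 ± 2.21 CPM at P9 and 40.4 ± 11.5 CPM at P2 (SD, n = 6 each), a log2 fold change of -2.87 (SE 0.30, adjusted p = 9.26e-06, edgeR quasi-likelihood with Benjamini-Hochberg).

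NM_001324321 had 7.62, 2.78 and 8.30 CPM in P9 deletion libraries and 7.40, 14.3 and 9.81 CPM in P9 WT libraries. At P2 it had 51.3, 23.6 and 30.4 CPM in deletion libraries and 54.0, 37.5 and 37.8 CPM in WT libraries. The highest P9 library, WT replicate 2, stayed below the lowest P2 library, deletion replicate 2. NM_001324321 averaged 8.36 ± 3.73 CPM at P9 and 39.1 ± 11.8 CPM at P2 (SD, n = 6 each), a log2 fold change of -2.14 (SE 0.28, adjusted p = 7.03e-05, edgeR quasi-likelihood with Benjamini-Hochberg). NM_177304, NM_172412 and NM_001324321 kept their direction and their call under all 22 alternatives tried.

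**Figure D3:**
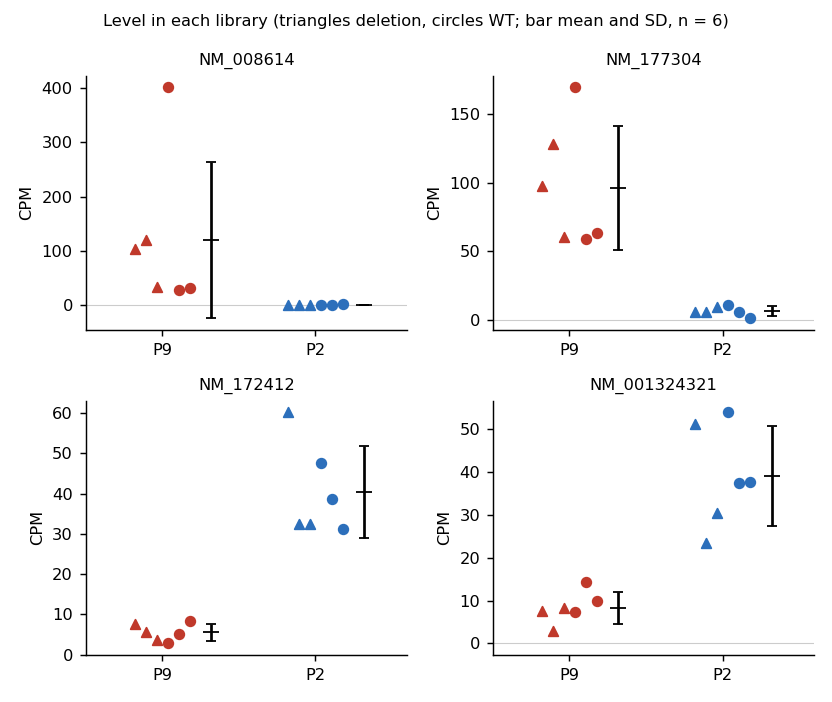
Level of 4 accessions in each library in CPM, with P9 (red) left of P2 (blue), deletion libraries as triangles and WT libraries as circles. Black bars give the mean and SD of 6 libraries. By the rule of choice, the ages do not overlap in any panel. NM_008614 and NM_177304 were higher at P9, and NM_172412 and NM_001324321 lower.

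Noncoding accessions fell more often than they rose. Of 592 NR_ accessions tested, 26 (4.39%) rose and 70 (11.8%) fell, while of 5919 NM_ accessions 647 (10.9%) rose and 460 (7.77%) fell. The median log2 fold change was -0.23 over NR_ accessions and 0.00 over NM_ accessions. The counts were nearly the same with relative log expression (RLE) factors in place of TMM factors (26 rose and 69 fell, median -0.23). Scaled to library totals, 20 NR_ accessions rose and 101 fell, and NM_ accessions also fell more often than they rose (451 rose and 755 fell). In the libraries, NR_ accessions other than the most abundant accession took 6.32% ± 0.597 of counts at P9 and 7.23% ± 0.394 at P2 (SD, n = 6 each; two-sided exact permutation test, p = 0.0108, adjusted p = 0.0649). The ranges overlapped, at 5.39% to 6.89% at P9 and 6.59% to 7.74% at P2. The most abundant accession took 7.53% ± 2.54 of counts at P9 and 6.20% ± 2.27 at P2 (SD, n = 6 each; exact permutation test, p = 0.342, adjusted p = 0.410). The part of these shares in the counts of NR_ accessions that fell was not tested.

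In the other libraries of the same design, measured on other samples, NR_ accessions showed the same tilt. In maternal-label hypothalamus 12 of 228 NR_ accessions (5.26%) rose and 56 (24.6%) fell, with a median log2 fold change of -0.41, while 14.7% of NM_ accessions rose and 10.6% fell. In maternal-label cortex 103 of 731 (14.1%) rose and 322 (44.0%) fell, with a median of -0.48, while 26.65% of NM_ accessions rose and 23.6% fell. NM_ accessions had medians of 0.01 and 0.00 in these fits.

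**Figure D4:**
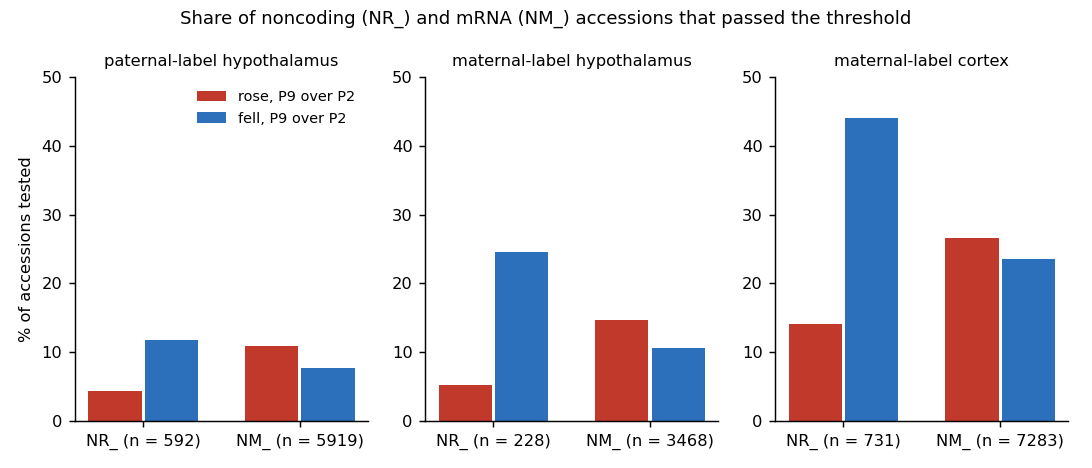
Share of noncoding (NR_) and mRNA (NM_) accessions that rose (red) or fell (blue) at P9 against P2, as % of accessions tested, in paternal-label hypothalamus, maternal-label hypothalamus and maternal-label cortex. NR_ accessions fell more often than they rose in all 3 fits, at 11.8%, 24.6% and 44.0% fallen.

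The age effect was next read separately in deletion and in WT pups, which share no library. Both readings come from 1 fit of the 12 libraries, with a shared estimate of spread. In deletion libraries, 208 accessions rose (3.19%) and 105 fell (1.61%) at P9 (edgeR, quasi-likelihood, adjusted p under 0.05), 4.81% of the 6511 in all. In WT libraries, 177 rose (2.72%) and 93 fell (1.43%), 4.15% in all. Both genotypes called 167 accessions, which is 53.4% of the calls in deletion and 61.9% of those in WT, and all 167 moved the same way. Of the 313 accessions called in deletion, 309 had the same sign in WT, and of the 270 called in WT, 269 had the same sign in deletion, against 74.97% of all accessions tested. Over all accessions the log2 fold changes of the genotypes correlated with Pearson's r of 0.727 (across 6511 accessions, which are not independent). These counts depended on single libraries: with any of the 12 left out they ran from 133 to 411 in deletion and from 81 to 319 in WT. The highest counts came from leaving out a library of the other genotype, 411 in deletion without P9 WT replicate 1 and 319 in WT without P9 deletion replicate 2. With a deletion library left out, the count in deletion was 135, 299 and 197 without P9 replicates 1, 2 and 3. It was 151, 213 and 133 without P2 replicates 1, 2 and 3. With a WT library left out, the count in WT was 152, 189 and 135 without P9 replicates 1, 2 and 3. It was 156, 101 and 81 without P2 replicates 1, 2 and 3.

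The difference itself was tested as an interaction. No accession passed (0 of 6511, 0.00%) for an age effect in deletion pups that differed from that in WT pups. There were 114 accessions at unadjusted p under 0.05, where evenly spread p-values give 326, and DESeq2, another count model, also called 0, with 61 at unadjusted p under 0.05. A count of 0 does not show that the genotypes aged alike. For the accessions described above the interaction, deletion minus WT, was -0.34 (SE 0.87) for NM_177304, 0.04 (SE 0.62) for NM_172412 and -0.30 (SE 0.59) for NM_001324321 on the log2 scale. The standard errors leave room for differences of more than 2-fold in NM_177304, NM_172412 and NM_001324321.

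Genotype itself, averaged over the ages, moved 1 accession past the threshold (0.0154% of 6511), with 103 at unadjusted p under 0.05. This was NM_173010, named after its values were seen. It had 7.62, 2.78 and 7.11 CPM in P9 deletion libraries and 51.8, 56.0 and 39.3 CPM in P9 WT libraries, and 6.69, 8.83 and 9.51 CPM in P2 deletion libraries and 60.3, 56.2 and 46.9 CPM in P2 WT libraries. The 6 deletion libraries were all below the 6 WT libraries. NM_173010 showed no age effect past the threshold (log2 fold change -0.21, SE 0.21, adjusted p = 0.582, edgeR quasi-likelihood with Benjamini-Hochberg), with 27.4 ± 24.4 CPM at P9 and 31.4 ± 25.7 CPM at P2 (SD, n = 6 each, both genotypes). The look-up covered rat accessions alone and does not settle whether NM_173010, or any other row, stands for the deleted gene. The genotype and parental labels were not checked by that gene and were taken as given.

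The same comparison in the 12 maternal-label hypothalamus libraries (6 at P9 and 6 at P2, 3 deletion and 3 WT at each age), which share no library with those above, gave a separate reading of the age effect. Their lowest total was 218288 counts, against 437650 for the paternal label, and 3696 accessions passed the filter on low counts. Of these, 521 rose (14.1%) and 424 fell (11.5%) (edgeR, quasi-likelihood, adjusted p under 0.05). Of the 673 accessions that rose with the paternal label, 507 were tested with the maternal label, 450 had the same sign (88.8%) and 253 passed the threshold in the same direction (49.9%), against 14.0% that rose among all accessions tested in both. Of the 530 that fell, 363 were tested, 325 had the same sign (89.5%) and 143 passed in the same direction (39.4%), against 11.5% that fell among all. Over the 3688 accessions tested with both labels, 69.7% had the same sign, and log2 fold changes correlated with Pearson's r of 0.679 and Spearman's rho of 0.594 across accessions.

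Sizes were smaller in whichever set had not made the choice. Accessions that rose with the paternal label had a median log2 fold change of 0.73 there and 0.52 with the maternal label, and those that fell had -0.64 with the paternal label and -0.43 with the maternal label (accessions tested in both). Chosen the other way, accessions that rose with the maternal label had medians of 0.54 with the paternal label and 0.81 with the maternal label, and those that fell had -0.36 with the paternal label and -0.72 with the maternal label. Over all accessions the medians were -0.01 with the paternal label and -0.02 with the maternal label.

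**Figure D5:**
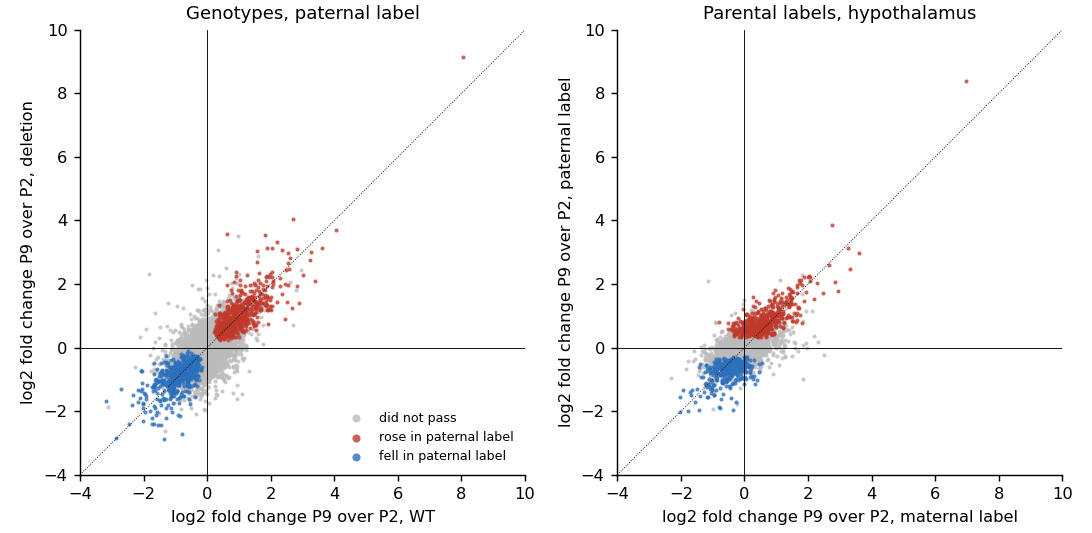
Log2 fold changes of P9 over P2 for each accession: deletion (vertical axis) against WT (horizontal axis) in the left panel, and the paternal label (vertical) against the maternal label (horizontal) in the right panel. Red accessions rose and blue accessions fell with the paternal label, and the dotted line marks equal changes. The point at the upper right of each panel is NM_008614, whose fitted fold depends on a prior count. Of the accessions that rose, 88.8% had the same sign with the maternal label, and of those that fell 89.5%.

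The 4 accessions described above, the first 2 in each direction, had the following levels in maternal-label hypothalamus. NM_008614 ran from 31.6 to 827 CPM at P9 (median 158) and from 0 to 16.1 CPM at P2 (median 0), without overlap. NM_177304 ran from 49.4 to 194 CPM at P9 (median 73.1) and from 6.57 to 32.1 CPM at P2 (median 13.7), and had a log2 fold change of 2.76 (SE 0.35, adjusted p = 1.24e-05, edgeR quasi-likelihood with Benjamini-Hochberg). NM_172412 and NM_001324321 did not pass the filter on low counts there. NM_172412 ran from 0 to 7.90 CPM at P9 and from 12.04 to 32.8 CPM at P2, and NM_001324321 from 0 to 23.7 CPM at P9 and from 16.1 to 35.8 CPM at P2. The ages stayed apart for NM_172412 and overlapped for NM_001324321.

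Tested directly, the age effect with the paternal label minus that with the maternal label passed the threshold for 3 of 5840 accessions (0.0514%), with 768 at unadjusted p under 0.05 where evenly spread p-values give 292. The 3 accessions, named after their values were seen, each had an adjusted p of 0.0475, edgeR quasi-likelihood with Benjamini-Hochberg. For NM_005859 the paternal-label libraries ran from 852 to 1151 CPM at P9 and from 245 to 339 CPM at P2, and the maternal-label libraries from 598 to 915 CPM at P9 and from 312 to 442 CPM at P2. It thus rose with both labels, by 1.81 on the log2 scale with the paternal and by 0.95 with the maternal label, a difference of 0.85 (SE 0.17). NR_033498 ran from 414 to 554 CPM at P9 and from 240.0 to 337 CPM at P2 with the paternal label, and from 267 to 382 CPM at P9 and from 246 to 383 CPM at P2 with the maternal label, a difference of 0.89 (SE 0.17). NM_001005424 differed the other way, by -1.003 (SE 0.20), at 285 to 473 CPM at P9 and 297 to 391 CPM at P2 with the paternal label, and 479 to 753 CPM at P9 and 245 to 386 CPM at P2 with the maternal label.

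This count was not stable. DESeq2 called 53 accessions for the same difference, and 1 was called with all 24 libraries thinned to 218288 counts. With a single library left out the count was 0 in 16 of 24 fits. It reached 19 without P9 deletion replicate 2, 17 without P9 WT replicate 1 and 7 without P2 WT replicate 1 of the paternal label. Without libraries of the maternal label it reached 18 for P9 WT replicate 1, 12 for P9 deletion replicate 3 and 7 for P2 WT replicate 3. Without the paternal-label P9 deletion replicate 1 it was 2, and without P2 deletion replicate 2 it was 3. The lowest totals given above show the gap in depth between the labels, and its part in these differences was not tested. The low count of differences is no measure of how alike the labels are.

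Maternal-label cortex, fitted in its own table, gives values to set beside those of the hypothalamus, without a test across tissues. There, 50.9% of 8014 accessions changed at P9 against P2, of which 2044 were rises (25.5%) and 2038 falls (25.4%; edgeR, quasi-likelihood, adjusted p under 0.05), in libraries with a common biological coefficient of variation of 12.2% against 23.1% in paternal-label hypothalamus. Of the 650 accessions that rose in paternal-label hypothalamus and were tested in cortex, 466 (71.7%) rose there and 13 fell, against 27.6% that rose among all accessions tested in both tissues. Of the 517 that fell, 360 (69.6%) fell there and 22 rose, against 26.4% that fell among all. Of the 396 accessions that moved the same way with both labels in hypothalamus (253 rises and 143 falls), 357 also moved that way in cortex and 35 did not pass there. The other 4 fell with both labels in hypothalamus and rose in cortex. The shares over all accessions tested with both labels and in cortex are not given here. Among all accessions tested in both tissues, 27.6% rose and 26.4% fell in cortex.

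The accessions described above moved the same way in cortex. NM_008614 ran from 25.4 to 206 CPM at P9 and from 0 to 1.95 CPM at P2. NM_177304 had a log2 fold change of 2.29 (SE 0.33, adjusted p = 0.000217, edgeR quasi-likelihood with Benjamini-Hochberg), at 94.7 ± 36.1 CPM at P9 and 19.1 ± 5.14 CPM at P2 (SD, n = 6 each). NM_172412 fell by 4.04 (SE 0.19, adjusted p = 5.47e-13, edgeR), at 5.60 ± 2.45 CPM at P9 and 94.1 ± 13.6 CPM at P2 (SD, n = 6 each). NM_001324321 fell by 1.45 (SE 0.12, adjusted p = 1.19e-09, edgeR), with 18.6 to 31.8 CPM at P9 and 54.6 to 75.5 CPM at P2. These levels are scaled within cortex and are not compared with hypothalamic levels.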

How the data were processed

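RNA was measured in hypothalamus with, per the labels' protocols, rRNA depletion and a directional library kit. The submitters' processing notes name STAR and the rat build rn6 (Rnor_6.0), without their roles. Not given in the sources used here are the read counter, its annotation and its strand setting. Deposited tables hold raw counts per RefSeq accession, 168377 NM_ and 16067 NR_, one column per library, and 0 per-sample columns were left unmapped. Groups come from the labels. Replicate numbers follow the order of the sample records and pair nothing.

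In R 4.3.3, edgeR 4.0.16 was run on the 12 paternal-label hypothalamus libraries with TMM factors, filterByExpr over the 4 groups, genotype and age as terms and robust quasi-likelihood dispersion (9 residual degrees of freedom). Tests were two-sided with Benjamini-Hochberg adjustment over all accessions tested and a threshold of 0.05. Standard errors were derived from the F statistic. Interactions came from fits with 1 mean per group (12 libraries for genotype, 24 for parental label). Maternal-label hypothalamus and cortex were fitted the same way. Library measures were tested by exact permutation (SciPy 1.17.1). The edgeR script was tested on simulated counts. None of the 12 replicate pairs was a repeat (lowest chi-square per degree of freedom 2.34).

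Accessions described singly were, in each direction, the first pair by absolute log2 fold change among those past the threshold, with a mean of at least 10 CPM and no overlap between ages. Counts of 5 or fewer elsewhere are named as well. The comparison, this rule and the 31 gene lists (745 symbols) were chosen with earlier results of these data known. The lists gave no value, since 0 of their rat accessions were counted, and the planned summing of counts per gene symbol could not be done. Alternatives were DESeq2 1.42.0, other scalings and filters, thinning to a common depth, other model terms and leaving out libraries. The DNA methylation tables were not used here.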

Additional observations from a re-analysis of the deposited data

Results flagged for a closer look

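Of 18 groups of 6 libraries examined for a library far from the others, 2 had one, where chance gives about 1 in 20. NM_008614 had 402 CPM in P9 WT replicate 1, and the next highest P9 library, deletion replicate 2, had 120 CPM. NM_008614 also had 1.30 CPM, a single count, in P2 WT replicate 3, with 0 CPM in the other P2 libraries. There the measure carries no information, since it takes its highest value whenever a single library of a group is above 0, so 1 group is left to set against the chance rate.

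The age effect differed between the parental labels, by the test of the difference itself, for NR_033498 (0.89 on the log2 scale, paternal minus maternal), NM_001005424 (-1.003) and NM_005859 (0.85), each with an adjusted p of 0.0475 (edgeR quasi-likelihood, Benjamini-Hochberg). That value lies close to the threshold of 0.05. When each library was omitted in turn, no accession passed in 16 of the 24 fits, and 1 passed after thinning.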

How the results depend on the processing

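The count of 1203 accessions changed with age in paternal-label hypothalamus stayed within 1.5 times under all 22 alternatives, from 871 without P2 WT replicate 3 to 1334 without the genotype term, with 1258 by DESeq2, 1026 with no filter on low counts, 1236 with all 24 hypothalamus libraries fitted together and 876 thinned to the lowest total. The falls alone, 530, numbered 352 without P2 WT replicate 3. DESeq2 called 96.7% of the 1203 accessions, and thinning left 799 of them (66.4%). The age effect within genotypes ranged over 81 to 319 accessions in WT and 133 to 411 in deletion with a library left out. The difference between parental labels, 3 accessions, moved to 53 with DESeq2, to 1 when thinned, and ranged from 0 to 19 with a library left out, and the cause was not tested. The interaction of age with genotype stayed at 0 in all 13 alternatives. The age effect of maternal-label hypothalamus ran from 726 to 1137 accessions and that of maternal-label cortex from 3875 to 4152 with a library left out. No paired analysis was possible because the labels give no replicate numbers.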

Other observations

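Of the accessions called with both parental labels in hypothalamus, 4 moved in opposite directions, and they were picked out after their values were seen. NM_175266 ran from 2900 to 4401 CPM at P9 and from 2499 to 3013 CPM at P2 with the paternal label, and from 2016 to 2796 CPM at P9 and from 2611 to 3421 CPM at P2 with the maternal label. NM_001033300 also rose with the paternal label (log2 fold change 0.36) and fell with the maternal label (-0.34). NM_199322 fell with the paternal label (-0.51) and rose with the maternal label (0.46), as did NM_008841 (-0.48 with the paternal and 0.57 with the maternal label). For none of these 4 did the test of the difference between labels pass the threshold: adjusted p ran from 0.0633 to 0.0764 (edgeR quasi-likelihood, Benjamini-Hochberg).

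Replicates were more alike at P2. The median SD of log2 CPM within a group of age and genotype was 0.38 at P9 and 0.32 at P2, over the 6511 accessions tested. Library totals also varied more at P9 (SD 248358 counts, against 137531 at P2), and the lowest total, 437650 counts, was a P9 library. Neither the difference in spread nor the part of library depth in it was tested.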
